A study of Rattus norvegicus with 4 samples.

Results

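Matrix metalloproteinases (MMPs) are zinc-dependent endopeptidases that cleave collagens, elastin, proteoglycans and other proteins around the cell. Most are secreted as inactive proenzymes, which other proteases activate and tissue inhibitors of metalloproteinases (TIMPs) block, while the membrane types stay anchored at the cell surface. In the artery wall they are known for the matrix breakdown that accompanies smooth muscle migration, intimal thickening and aneurysm. The genes described here are Mmp2, Mmp3, Mmp9, Mmp10, Mmp11, Mmp12, Mmp13, Mmp14, Mmp16 and Mmp19. They were taken by symbol, as every probe set annotated to exactly 1 of these genes, which gave 13 of the 31099 probe sets on the array and 10 of 14218 named genes. Mmp2, Mmp9 and Mmp14 had 2 probe sets each and the other members 1 each.

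The RNA came from smooth muscle cells of the rat aorta (strain Sprague-Dawley), kept in culture, grown for 3 days with serum and then held for 3 days without it. Cells then received interleukin-1b (IL-1b, an inflammatory cytokine) at 2.5 ng/mL, or its vehicle of 0.1% bovine serum albumin with 10 mM acetic acid, or platelet-derived growth factor DD (PDGF-DD) at 30 ng/mL, or its vehicle of 0.01% albumin, each for 24 h. Each of the 4 groups was 1 array, the number of animals behind a culture is not given in the sources used here, and no difference below has a replicate check or a p-value. The question of the design was how each factor altered expression, so each factor is set beside its own vehicle, and also beside the other vehicle, since the vehicle arrays themselves differed.

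Values are array intensities on a linear scale after scaling the arrays to a common trimmed mean. An intensity of 28.1, the 40th percentile of all probe sets, served as a floor below which a signal was not read. All 27 bacterial control probe sets lay at or under this floor on all 4 arrays, and whether their RNA had been added was not examined. A gene under the floor on 1 array of a pair has only a bound for its fold, and a gene under it on both has none. The share of probe sets above it ranged over the arrays between 58.3% and 61.5%. Of the smooth muscle markers, 8 of 8 (Acta2, Myh11, Tagln, Cnn1, Smtn, Lmod1, Des and Myocd) passed the floor on 1 array or more. So did 10885 of the 14218 named genes, and Des passed it with the IL-1b vehicle alone, at 42.6. The summed intensity of the 8 markers was 8614 with IL-1b against 28035 with its vehicle, and 4701 with PDGF-DD against 20186 with its vehicle. In bulk RNA fewer expressing cells and less RNA per cell cannot be told apart. For RNA integrity, the 3' over 5' signal of the beta-actin control probes was 2.05 with IL-1b against 1.58 with its vehicle. With PDGF-DD it was 1.37 against 1.26 with its vehicle. The same ratio for the GAPDH control probes was 1.27 with IL-1b against 1.22 with its vehicle. For PDGF-DD the GAPDH ratio was 1.07 against 1.11 with its vehicle. The part of RNA integrity in the values below was not tested.

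With IL-1b, 3 members were at least 2-fold higher than with its vehicle, stromelysin Mmp3, collagenase Mmp13 and gelatinase Mmp2, and 1 was at least 2-fold lower, Mmp11. In the background of 10679 genes above the floor on either array of this pair, 6.15% were higher and 5.42% lower by that size. Of the 10 members 8 were above the floor on 1 of the arrays at least; 4 of these were less than 2-fold apart or had a bound under 2-fold, and Mmp10 and Mmp12 were at the floor. Mmp3, Mmp9 and Mmp13 were among the 8 through the IL-1b array alone, so no median over the 8 is given. Against the PDGF-DD vehicle array, the same 3 members, Mmp2, Mmp3 and Mmp13, were past 2-fold upward with IL-1b, and no member was past it downward; the shares of all genes there were 5.44% and 4.97%.

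**Figure D1:**
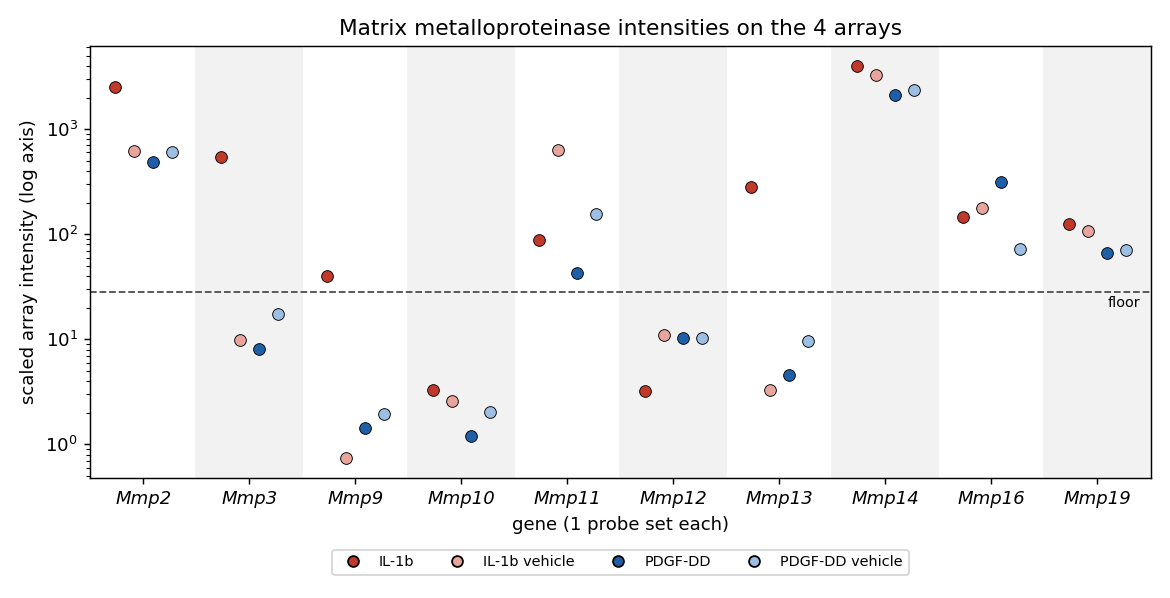
Scaled intensity (log axis) of each member on the 4 arrays, with 1 point per array and the floor of 28.1 as a dashed line. Mmp3 and Mmp13 stand above the floor on the IL-1b array and under it on the other 3, Mmp10 and Mmp12 lie under it throughout, and Mmp11 is highest with the IL-1b vehicle; intensities of different probe sets are not comparable as amounts.

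Mmp3, known as stromelysin, cleaves proteoglycans, laminin and fibronectin and activates other proMMPs. Its probe set read 547 with IL-1b against 9.95 with the IL-1b vehicle, and 8.09 with PDGF-DD against 17.3 with the PDGF-DD vehicle. It was above the floor with IL-1b alone among the 4 arrays. The difference from either vehicle was at least 19.5-fold, or at least 4.28 on the log2 scale.

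Mmp13, the principal interstitial collagenase of rodents, was likewise above the floor with IL-1b alone. Its probe set read 284 with IL-1b against 3.29 with its vehicle, and 4.55 with PDGF-DD against 9.66 with its vehicle. This was at least 10.1-fold higher than either vehicle, a log2 ratio of at least 3.34. Both genes were under the floor on the 3 arrays without IL-1b, so the sizes of the 2 bounds are set by the floor and cannot be ranked against each other.

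Mmp3 and Mmp13 lie close together in the genome, in a run of 10 protein-coding MMP genes on rat chromosome 8 that reads Mmp13, Mmp12, Mmp1b, Mmp3, Mmp1, Mmp10, Mmp8, Mmp27, Mmp20 and Mmp7, with no other protein-coding gene between them in the GRCr8 RefSeq table. Of these, 6 were measured under their own symbol on the array. Mmp3 and Mmp13 were the only 2 of the 6 above the floor, and only with IL-1b; Mmp12, Mmp10, Mmp8 and Mmp7 were at the floor on all 4 arrays. The promoters of the 4 members in the run are shown, from 100 bases before the gene start to 10 bases after it, because neighbours with and without signal can be compared letter by letter. Capitals mark the motif of AP-1, the FOS and JUN factor family (TGANTCA, which reads the same on both strands), and the TATA box (TATAAA on either strand). The windows are RefSeq sequence of build GRCr8, plus strand, at chr8:12925181-12925290 for Mmp3, chr8:12782729-12782838 for Mmp13, chr8:12974607-12974716 for Mmp10 and chr8:12866552-12866661 for Mmp12.
Mmp3: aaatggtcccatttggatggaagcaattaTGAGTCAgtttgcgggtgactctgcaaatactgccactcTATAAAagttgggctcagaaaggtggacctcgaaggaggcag
Mmp13: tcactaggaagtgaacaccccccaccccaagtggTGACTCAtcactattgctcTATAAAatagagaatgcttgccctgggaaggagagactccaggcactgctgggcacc
Mmp10: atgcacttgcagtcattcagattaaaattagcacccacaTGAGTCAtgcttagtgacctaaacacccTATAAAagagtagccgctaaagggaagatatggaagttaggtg
Mmp12: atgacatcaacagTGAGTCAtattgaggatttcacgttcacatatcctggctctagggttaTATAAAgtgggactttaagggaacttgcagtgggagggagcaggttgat

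All 4 windows held both motifs, those of the genes with signal and those of the genes at the floor. The AP-1 match began 71 bases before the start in Mmp3, 66 in Mmp13, 61 in Mmp10 and 87 in Mmp12. The TATA box began 32, 47, 33 and 39 bases before it. In Mmp3, Mmp10 and Mmp12 the AP-1 match reads TGAGTCA, and in Mmp13 TGACTCA. The ETS motif of PEA3 (AGGAAG, both strands) had 1 match in Mmp13, 95 bases before the start, and 1 in Mmp3, 206 bases before it and outside the window shown, and none in Mmp10 or Mmp12. No 2 matches of different motifs overlapped in these 4 genes, and in Mmp10 a further pair of TATAAA matches on opposite strands overlapped each other upstream of the window. Elsewhere in the run, Mmp8 had 2 AGGAAG matches and Mmp7 had 1, and both genes were at the floor on all 4 arrays. A match to AGGAAG thus did not separate the measured genes with signal from those at the floor.

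Promoters were in the table for 5 of the 10 members. The other one was that of Mmp11, on chromosome 20, which held none of the 3 motifs in its window of 250 bases before to 50 bases after the start. Over 33469 rat promoters of the same length, 7.33% held the AP-1 motif, 14.2% TATAAA and 34.5% AGGAAG. With AP-1 in the 100 bases before the start and TATAAA on the gene strand 20 to 50 bases before it, limits chosen after these matches had been seen, 32 promoters qualified. Of those 32, 6 belonged to MMP genes, namely Mmp3, Mmp13, Mmp10 and Mmp12 among the members and Mmp1 and Mmp7 outside them. A match describes these letters and is not a measured binding site.

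**Figure D2:**
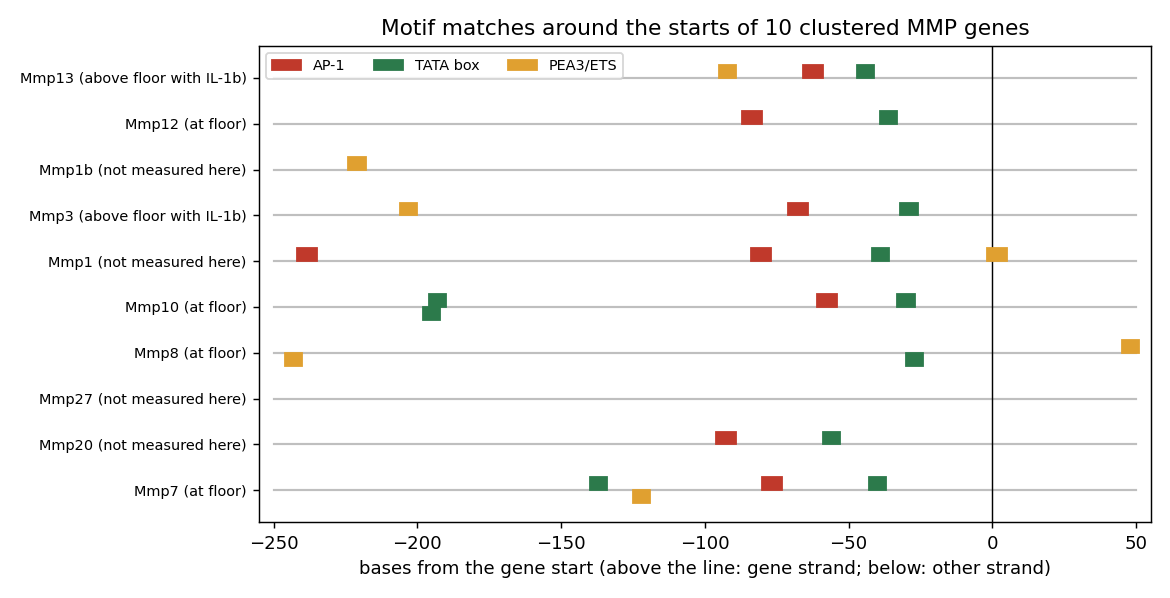
Motif matches from 250 bases before to 50 bases after the start of each of the 10 MMP genes on chromosome 8, in their order along the chromosome, with matches on the gene strand above each line and on the other strand below. Mmp3 and Mmp13, above the floor with IL-1b, and Mmp10 and Mmp12, at the floor, each have an AP-1 match upstream of a TATA box.

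Mmp2 and Mmp9 are the gelatinases, which digest denatured collagen and basement membrane type IV collagen. Mmp2, measured by its brighter probe set, read 2493 with IL-1b against 621 with its vehicle, and 488 with PDGF-DD against 610.2 with its vehicle. The vehicle arrays lay within 1.02-fold of each other, and the IL-1b array stood apart from the remaining 3. The fold with IL-1b was 4.01 over its own vehicle and 4.09 over the PDGF-DD vehicle. Ranked by that ratio, Mmp2 was number 157 from the top of the 9583 genes that passed the floor on each array of the IL-1b pair. The other Mmp2 probe set was dim, at 45.6 with IL-1b against 25.2 with its vehicle, and 18.8 with PDGF-DD against 11.2 with its vehicle. Only its IL-1b value was above the floor, which bounds the difference at 1.62-fold or more.

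Mmp9 was barely measured. Its brighter probe set read 39.95 with IL-1b against 0.742 with its vehicle, and 1.44 with PDGF-DD against 1.95 with its vehicle. The IL-1b value is a little above the floor and bounds the fold at 1.42 or more. A second probe set read 17.1 with IL-1b against 1.58 with its vehicle, under the floor on all 4 arrays, and was not read.

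Mmp10, a second stromelysin, and Mmp12, an elastin-degrading enzyme best known from macrophages, were not detectable above the floor. Mmp10 read 3.29 with IL-1b against 2.59 with its vehicle and 1.19 with PDGF-DD against 2.06 with its vehicle. Mmp12 read 3.25 with IL-1b against 11.1 with its vehicle and 10.3 with PDGF-DD against 10.4 with its vehicle. No fold is given for either gene. Of 10 macrophage and leukocyte markers, 6 were at the floor on all 4 arrays, among them Ptprc, Cd68, Csf1r and Itgam, which define leukocytes and macrophages. Cd14, a lipopolysaccharide co-receptor of the same list, was measured on every array, at 1333 with IL-1b against 1121 with its vehicle, and 1117 with PDGF-DD against 1220 with its vehicle. Adgre1 and Fcer1g passed the floor with IL-1b alone, at 41.7 and 30.6. The list's summed intensity was 2771 with IL-1b against 1225 with its vehicle, and 1197 with PDGF-DD against 1313 with its vehicle. Lyz2, a lysozyme of myeloid cells, accounted for most of the IL-1b excess at 1305 with IL-1b against 27.98 with its vehicle, just under the floor, or at least 46.5-fold, so it moved with Mmp3 and Mmp13; its part in their values was not tested. Neutrophil markers were near the floor, with a summed intensity over 3 genes of 95.1 with IL-1b against 11.2 with its vehicle and of 18.1 with PDGF-DD against 10.1 with its vehicle. Endothelial and adipocyte markers were at the floor on all 4 arrays in 5 of 6 and 3 of 3 genes.

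Mmp11, which is activated inside the cell by furin and cleaves serpin inhibitors better than structural matrix, was the member that was lower with both factors. It read 88.6 with IL-1b against 633 with its vehicle, and 43.2 with PDGF-DD against 157 with its vehicle. These are folds of 7.15 and 3.63 lower, or log2 ratios of -2.84 and -1.86. The vehicle arrays were themselves 4.04-fold apart, with 157 in the PDGF-DD vehicle against 633 in the IL-1b vehicle. As a result the IL-1b array was only 1.77-fold lower than the PDGF-DD vehicle array, short of 2-fold, while the PDGF-DD array was 14.7-fold lower than the IL-1b vehicle array. The order of arrays from low to high was PDGF-DD, IL-1b, PDGF-DD vehicle and IL-1b vehicle, so each factor array lay under both vehicle arrays.

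Mmp14 and Mmp16 are membrane-type MMPs that can activate proMmp2 at the cell surface, Mmp14 together with Timp2. Mmp14 read 4029 with IL-1b against 3265 with its vehicle, and 2095 with PDGF-DD against 2353 with its vehicle. It was 1.23-fold higher with IL-1b and 1.12-fold lower with PDGF-DD, neither past 2-fold. Its second probe set gave 476 against 334 for IL-1b and its vehicle, and 245 against 272 for PDGF-DD and its vehicle. The order of the 4 arrays was the same, and the IL-1b pair was 1.42-fold apart.

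Mmp16 was the member that was higher with PDGF-DD. It read 315 with PDGF-DD against 73.0 with its vehicle, and 145 with IL-1b against 179 with its vehicle. The PDGF-DD array was the highest of the 4 and the PDGF-DD vehicle array the lowest. The fold was 4.32 with PDGF-DD, number 23 from the top of the 9482 genes that passed the floor on each array of that pair, and with IL-1b the gene was 1.23-fold lower. The PDGF-DD vehicle was 2.45-fold lower than the IL-1b vehicle, and over the IL-1b vehicle the PDGF-DD array was only 1.76-fold higher. IL-1b over the PDGF-DD vehicle gave 1.99-fold higher, just under the 2-fold limit, so the direction for IL-1b depended on the vehicle.

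Mmp19, a secreted MMP that cleaves basement membrane components, read 126 with IL-1b against 108 with its vehicle, and 65.8 with PDGF-DD against 70.9 with its vehicle. It was 1.17-fold higher with IL-1b and 1.08-fold lower with PDGF-DD. The gap between the vehicles was wider than either, at 1.52-fold lower in the PDGF-DD vehicle.

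**Figure D3:**
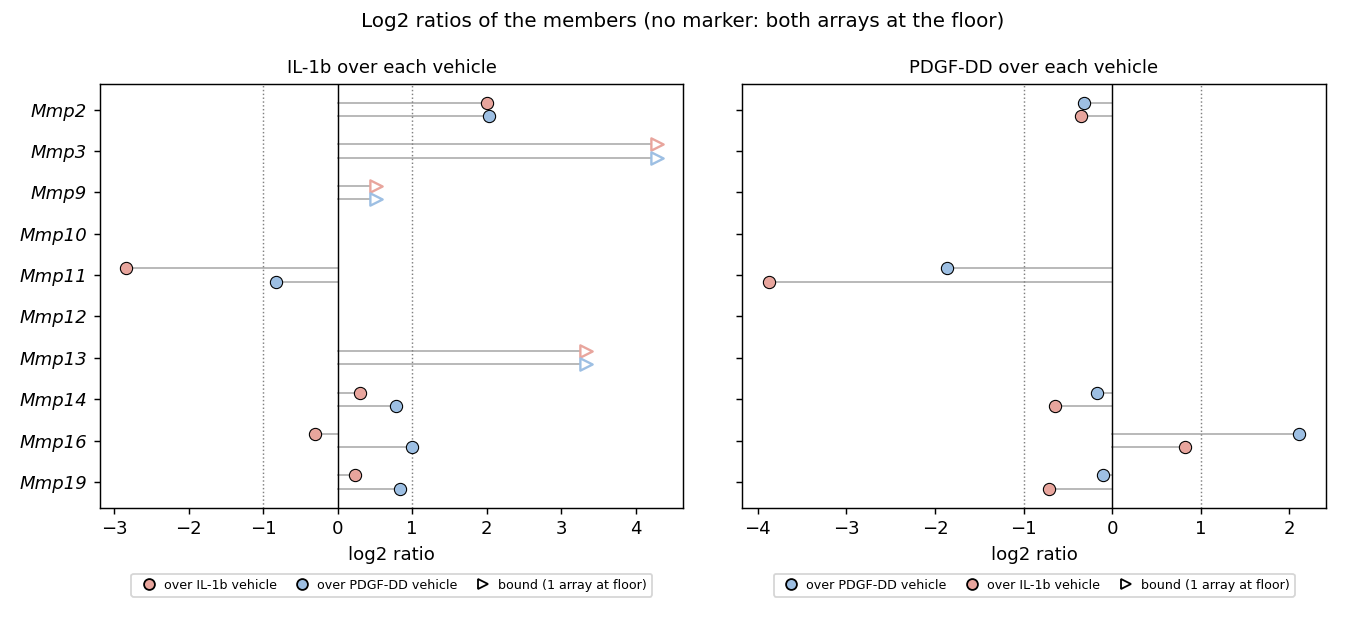
Log2 ratio of each member for IL-1b (left) and PDGF-DD (right) over its own vehicle and over the other vehicle array, with dotted lines at 2-fold and open triangles for bounds. Mmp2, Mmp3 and Mmp13 are past 2-fold with IL-1b over both vehicles, while Mmp11 with IL-1b and Mmp16 with PDGF-DD are past it over their own vehicle only.

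With PDGF-DD, 1 member (Mmp16) was at least 2-fold higher than with its vehicle and 1 (Mmp11) at least 2-fold lower. In the background of 10142 genes of this pair, 4.24% were higher and 4.67% lower by that size. Only 5 members were above the floor on either array, Mmp2, Mmp11, Mmp14, Mmp16 and Mmp19, with a median log2 ratio of -0.17 beside 0.01 for all genes; Mmp3, Mmp9, Mmp10, Mmp12 and Mmp13 were at the floor on both. Against the IL-1b vehicle array, Mmp11 was at least 2-fold lower and no member at least 2-fold higher, and the shares of all genes were 9.64% higher and 10.3% lower. Of the 5 members above the floor on all 4 arrays, 4 were lowest on the PDGF-DD array (Mmp2, Mmp11, Mmp14 and Mmp19), as were 32.9% of 9165 genes.

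The vehicle cultures received no factor. Between their arrays, Mmp11 and Mmp16 were at least 2-fold lower in the PDGF-DD vehicle than in the IL-1b vehicle and no member was at least 2-fold higher. The shares of all genes were 4.67% lower and 5.79% higher, of 10389. The 5 members above the floor had a median log2 ratio of -0.60, beside -0.05 for all genes. Composition of the vehicles, culture and array cannot be told apart in this comparison.

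**Figure D4:**
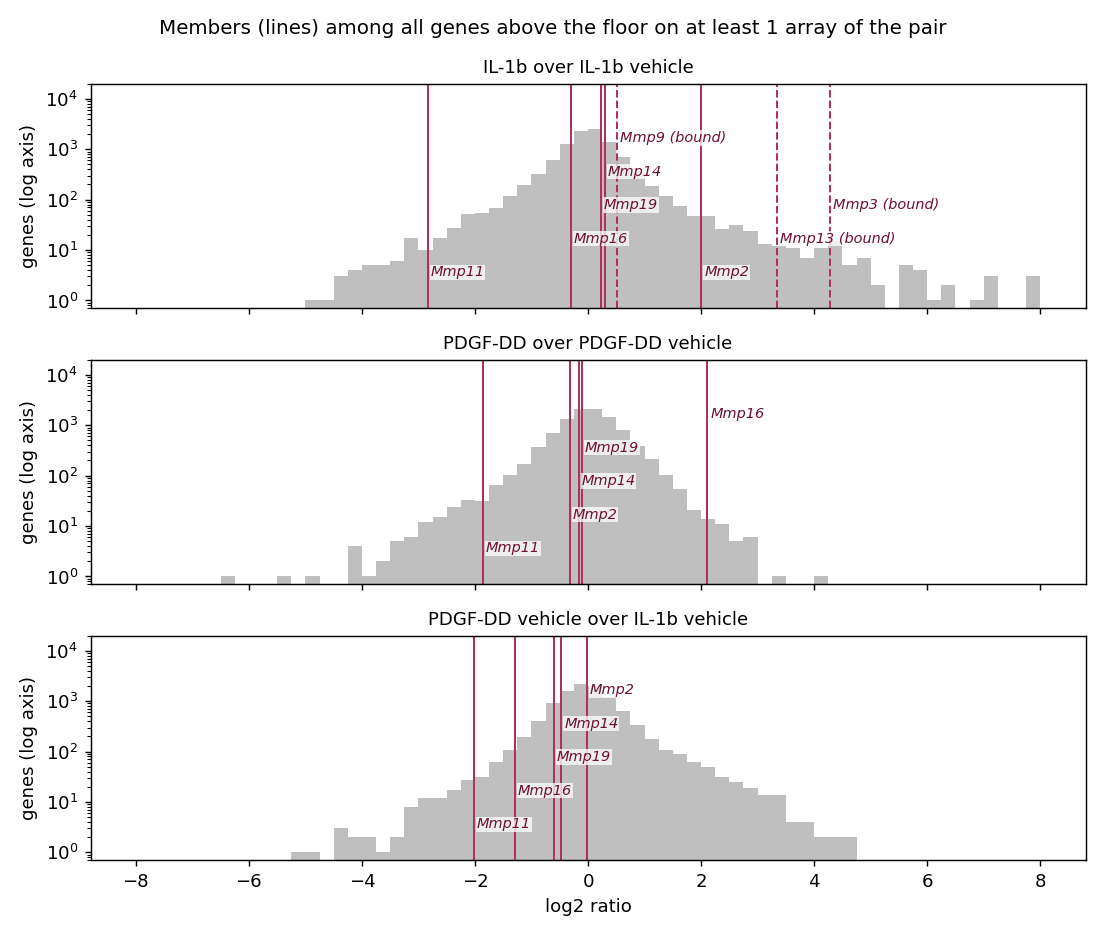
Histograms (log count axis) of the log2 ratios of all genes above the floor on at least 1 array of each pair, with members as lines and bounds dashed. With IL-1b the lines of Mmp2, Mmp13 and Mmp3 lie in the right tail and Mmp11 in the left, with PDGF-DD Mmp16 and Mmp11 lie in the tails, and between the vehicles Mmp11 and Mmp16 lie to the left.

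The remaining MMP genes on the array that are no members were 7, and with neither factor was any of them higher by 2-fold or more. Mmp17, a membrane-type MMP, was 8.83-fold lower with IL-1b, at 52.6 against 465 with its vehicle, and was 16.5-fold lower in the PDGF-DD vehicle than in the IL-1b vehicle, so that over the PDGF-DD vehicle the log2 ratio with IL-1b was 0.90, in the other direction. It shared with Mmp11 its peak on the IL-1b vehicle array, as 29.4% of the 10885 named genes above the floor on 1 array or more also did. The others above the floor, Mmp15, Mmp23, Mmp24 and Mmp28, were within 2-fold with IL-1b or had bounds under it; of the 3 Mmp23 probe sets, a dimmer one was 2.60-fold lower.

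Of the MMP inhibitors, 4 of 6 were above the floor, and 2 of them, Timp1 and Timp3, were past 2-fold with IL-1b, in opposite directions. Timp1, which blocks most secreted MMPs, read 9035 with IL-1b against 2366 with its vehicle, and 6310 with PDGF-DD against 7086 with its vehicle. Timp3, which binds to the matrix and also blocks ADAM proteases, read 934 with IL-1b against 3317 with its vehicle, and 1645 with PDGF-DD against 1759 with its vehicle. Timp1 was thus 3.82-fold higher and Timp3 3.55-fold lower with IL-1b, but over the PDGF-DD vehicle the log2 ratios were 0.35 and -0.91, less than 2-fold, although the dimmest of the 4 Timp3 probe sets gave -2.39. Timp2, the partner of Mmp14 in proMmp2 activation, was 1.08-fold lower with IL-1b and 1.63-fold lower with PDGF-DD. The membrane-anchored inhibitor Reck was 1.01-fold lower with IL-1b and 1.86-fold lower with PDGF-DD; no inhibitor was 2-fold apart with PDGF-DD, although the dimmer Timp2 probe set gave a log2 ratio of -1.03.

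Among 7 measured genes of the plasminogen and proprotein convertase systems, which activate proMMPs, IL-1b gave 2 that were higher by 2-fold or more and 1 that was lower. Plat, tissue plasminogen activator, read 5121 with IL-1b against 289 with its vehicle, and 644 with PDGF-DD against 1037 with its vehicle. Serpine2, an inhibitor of plasminogen activators and thrombin, was 12.8-fold higher with IL-1b, but the PDGF-DD vehicle was 20.3-fold higher than the IL-1b vehicle for this gene, and over the PDGF-DD vehicle IL-1b was 1.58-fold lower. The urokinase gene Plau was at the floor on all 4 arrays. Furin, the convertase that activates Mmp11 and Mmp14, was 1.05-fold higher with IL-1b and 1.097-fold higher with PDGF-DD. The convertase Pcsk5 was 3.96-fold lower with IL-1b and 3.21-fold lower with PDGF-DD, but over the PDGF-DD vehicle it was 1.46-fold higher with IL-1b, since the PDGF-DD vehicle was 5.80-fold lower than the IL-1b vehicle. With PDGF-DD the convertase Pcsk7 and the urokinase receptor Plaur were 2.10-fold and 2.03-fold higher.

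Of the AP-1 and ETS factors, 13 of 15 were measured with IL-1b, and 7 were past 2-fold upward and 1 downward, with a median log2 ratio of 1.12 beside 0.02 for all genes. Maff was 10.2-fold higher, and Etv4, Etv5 and Fosl1 at least 7.16-fold, 6.18-fold and 5.52-fold; a dimmer Etv5 probe set was 1.16-fold higher. The lower one was Jun, at 172 with IL-1b against 364 with its vehicle; it falls outside the naming rule and was chosen after its value was seen, and its other 2 probe sets were 1.39-fold and 1.53-fold lower. Over the PDGF-DD vehicle Jun was 1.27-fold lower with IL-1b, 4 of 13 factors were past 2-fold upward and 0 downward, and the median was 0.89. Those 4 were Maff, Etv4, Etv5 and Fosl1, at 3.71-fold, 3.28-fold, 2.40-fold and 2.04-fold. With PDGF-DD 6 of 14 were past 2-fold upward and 0 downward, with a median of 0.30. Over the IL-1b vehicle 9 of 14 were past 2-fold upward, with a median of 1.25. Fosl1 read 733 with PDGF-DD against 75.9 with its vehicle, a 9.67-fold difference, and Jun read 994 against 219.5 with its vehicle, 4.53-fold higher. Of the AP-1 genes, Fos was the only other one past 2-fold with PDGF-DD, while Fosl2, Junb and Jund had log2 ratios of -0.42, -0.25 and -0.05; the other 3 of the 6 were the ETS factors Etv1, Etv4 and Etv5. Between the vehicles 6 of 12 factors were at least 2-fold higher in the PDGF-DD vehicle.

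NF-kappaB subunits and inhibitors, which act downstream of the IL-1 receptor, were past 2-fold with IL-1b in 5 of 9 genes, all upward; the median log2 ratio of the 9 was 1.22. Nfkbia, an inhibitor that is itself an NF-kappaB target, was 6.58-fold higher, Nfkbiz 6.24-fold, Nfkbib 2.71-fold and Bcl3 at least 6.83-fold. Over the PDGF-DD vehicle 4 of 9 were past 2-fold upward with IL-1b and 0 downward, with a median of 0.95. Those 4 were Tnfaip3, Nfkbia, Bcl3 and Nfkbiz, at 3.29-fold, 2.80-fold, 2.67-fold and 2.49-fold. The dimmer Bcl3 probe sets were 1.31-fold and 1.39-fold higher there. Nfkbib was 1.93-fold and Nfkb2 1.65-fold higher over that vehicle, short of 2-fold. With PDGF-DD 0 of 9 were higher and 1, Nfkb2, was 2.03-fold lower (1.44-fold over the IL-1b vehicle), with a median of -0.61. In the PDGF-DD vehicle 3 of 9 were at least 2-fold higher than in the IL-1b vehicle.

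**Figure D5:**
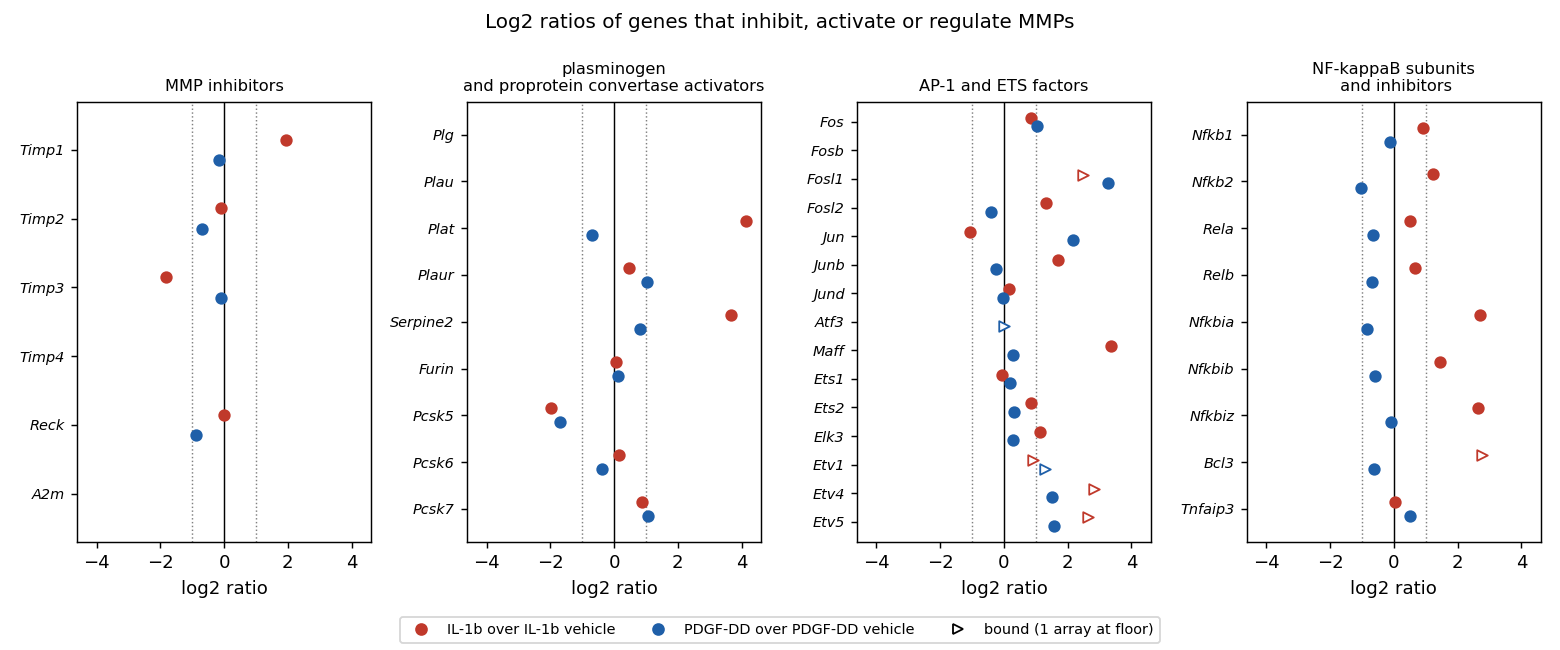
Log2 ratios over the own vehicle for genes that inhibit, activate or regulate MMPs, with IL-1b in red, PDGF-DD in blue, dotted lines at 2-fold and open triangles for bounds; genes without a marker were at the floor on both arrays. Timp1 and Timp3 lie on opposite sides with IL-1b, Jun lies on opposite sides with the 2 factors, and the NF-kappaB genes lie to the right with IL-1b, apart from Tnfaip3 near 0.

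Of 21 matrix proteins that MMPs cleave, 20 were measured with IL-1b, with 2 at least 2-fold higher and 3 lower and a median log2 ratio of -0.21. Versican, Vcan, was 9.54-fold higher and laminin alpha 4, Lama4, 6.52-fold higher, while nidogen Nid1, elastin Eln and laminin Lamb2 were 3.69-fold, 2.61-fold and 2.24-fold lower; a dimmer elastin probe set was 21.4-fold lower and a dimmer nidogen one 1.33-fold lower. Over the PDGF-DD vehicle Vcan and Lama4 were 2.43-fold and 2.30-fold higher with IL-1b, and Lamb2 was 1.09-fold and Nid1 2.08-fold lower. For elastin over that vehicle, the brighter probe set was 1.24-fold higher with IL-1b and the dimmer one 3.34-fold lower. With PDGF-DD 1 of 18 was at least 2-fold higher and 5 lower, with a median of -0.54. Elastin read 439 with PDGF-DD against 2513 with its vehicle, and the type IV collagens Col4a2 and Col4a1, substrates of the gelatinases, were 2.88-fold and 2.66-fold lower. Cd44, a hyaluronan receptor that docks Mmp9 and Mmp14, was 21.0-fold higher with IL-1b and 3.04-fold higher with PDGF-DD, and it was 6.93-fold higher in the PDGF-DD vehicle than in the IL-1b vehicle. The integrin Itgb3, which binds Mmp2 in a pair with the alpha v subunit, was 2.35-fold lower with IL-1b, but over the PDGF-DD vehicle, which was under the floor, it was at least 3.88-fold higher. By the probe set that stands for each gene, Cd44 and Itgb3 were the 2 of 8 docking and clearance genes past 2-fold with IL-1b. Caveolin Cav1 was 1.98-fold lower by that probe set, and its other 2 probe sets were 4.15-fold and 2.78-fold lower.

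Genes with the most similar profiles were sought by the smallest distance between log2 intensities centred on their mean over the 4 arrays, among 3256 genes with at least a 2-fold range; this is a description over 4 arrays that share their scaling. Closest to Mmp2 was Gng8, a G protein gamma subunit, at a distance of 0.050 and intensities of 815 with IL-1b against 208 with its vehicle and 162 with PDGF-DD against 195 with its vehicle, followed by Rapgef5 (0.18) and Ctsc, cathepsin C (0.27). Mmp3 lay closest to Csf2, a colony-stimulating factor (0.16), Plet1 (0.19) and Mgst1 (0.45). Mmp13 lay closest to Ptges, a prostaglandin E synthase (0.20), Tgm1 (0.28) and Gpnmb (0.29). For genes under the floor on 3 arrays, such as Mmp3, Mmp13 and Ctsc, the distance compares little more than the height of 1 array. The nearest genes to Mmp11 were Pkdcc (0.46), Mrgprf (0.50) and Selenop (0.51), and those to Mmp16 were Tnfaip8l3 (0.27), Ccdc74a (0.34) and Prcp (0.50). Pkdcc, for example, read 119 with IL-1b against 1038 with its vehicle, and 91.2 with PDGF-DD against 259 with its vehicle.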

How the data were processed

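The deposited values are linear intensities of 31099 probe sets on 4 arrays, which the authors computed with MAS5 (per the submitters' processing notes); neither its version nor its scaling target is stated there. Biotinylated cRNA was prepared from Trizol-extracted total RNA, per the labels' protocols. As deposited, the 4 columns shared a median of 53.3, and no detection calls were used.

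Each array was multiplied by a factor that gave all 4 the same 2%-trimmed mean (factors 1.01 for IL-1b, 1.03 for its vehicle, 0.951 for PDGF-DD and 1.01 for its vehicle). Values under the pooled 40th percentile, 28.1, were set to it, and log2 was taken last. Gene names came from the platform's annotation, which can be old: 20832 had 1 symbol, 436 several and 9831 none; 20764 of the first matched the GRCr8 RefSeq table, the 10 members among them. The probe set of highest mean log2 intensity stood for a gene, and other probe sets are given beside it. With 1 array per group no test was run; a difference counts at 2-fold among genes above the floor on 1 array at least. No error can be estimated from 1 array per group.

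Every member is named, and from each gene list up to 4 genes past 2-fold per comparison, with Timp1, Timp2, Timp3, Plat and Plau always; genes named to explain a count of 5 or fewer (Jun, and the other MMP genes above the floor), and Reck, Furin, Tnfaip3, Cav1, Fos, Fosl2, Junb, Jund and Etv1, were chosen after their values were seen. Members, lists, motifs and alternatives were chosen with earlier results of these data known. Promoters are RefSeq windows of GRCr8. Protein motifs and identities were planned and not analysed here. The scaling and fold steps were tested on simulated data with changes placed only in genes far above the floor. Bounds, dim genes and the promoter search were not covered by that test. Python 3.11.15, numpy 2.4.6 and pandas 2.3.3 were used. Alternatives were other scalings, floors, probe set choices, vehicles and fold limits.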

Additional observations from a re-analysis of the deposited data

Results flagged for a closer look

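Mmp2 and Mmp16 were picked out because the ratio to the own vehicle lay on opposite sides of 0 with IL-1b and with PDGF-DD, at least 2-fold apart; with 1 array per group the difference was not tested. For Mmp2 the log2 ratio was 2.004 with IL-1b and -0.32 with PDGF-DD, a difference of 2.33. The vehicle arrays lay within 1.02-fold of each other for this gene. For Mmp16 it was -0.30 with IL-1b and 2.11 with PDGF-DD, a difference of -2.41. The vehicle arrays differed 2.45-fold for Mmp16, and over the other vehicle both of its log2 ratios were positive, at 0.99 with IL-1b and 0.82 with PDGF-DD.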

How the results depend on the processing

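No paired analysis was possible because each group is 1 array. Among the members, Mmp2, Mmp3 and Mmp13 stayed past the fold limit upward with IL-1b under every scaling, floor, probe set choice, vehicle and limit (1.5-fold to 3-fold) tried, joined by Mmp9 at the 25th percentile floor and with no filter. For Mmp3 and Mmp13 the probe set and vehicle settings could not change the ratio. Each has 1 probe set and was under the floor on both vehicle arrays. The mean over both Mmp2 probe sets lowered its log2 ratio to 1.35, and its dim probe set was not tried alone. Among the members, no call of 2-fold or more turned direction with these settings, but the log2 ratio of Mmp16 with IL-1b, -0.30 as reported, was 0.34 over the mean of the vehicles and 0.99 over the other vehicle, and the median of the matrix substrates with IL-1b, -0.21, was 0.05 over the other vehicle. The AP-1 and ETS median with PDGF-DD, 0.30, was 0.98 over the mean of the vehicles. Against the other vehicle, 0 members were lower with IL-1b and 0 higher with PDGF-DD. With no filter, 2 members were lower with IL-1b, 3 lower with PDGF-DD and 1 higher in the PDGF-DD vehicle than in the IL-1b vehicle, the additions being genes under the floor; at 3-fold 1 was lower there. Over all genes, the counts higher with IL-1b were 1411 at 1.5-fold, 323 at 3-fold, 1017 at the 25th percentile floor and 1808 with no filter. Those lower with IL-1b were 1262, 253 and, with no filter, 1517. With PDGF-DD 1278, 88 and 1378 were higher at these 3 settings, 662 against the mean of the vehicles and 1002 against the other vehicle; 1259, 171 and 1612 were lower, and 1074 against the other vehicle. Between the vehicles 1299, 279 and 1508 were higher, and 1430, 162 and 1722 lower, with 827 and 317 lower at the 25th and 55th percentile floors. Apart from the fold limit and floor, which set these counts by construction, the cause was not tested. The bounds of Mmp3 and Mmp13 follow the floor, and a single array per group leaves every difference without an error.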
